A study of Mus musculus with 52 samples.

Results

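The promoters of the Dlx and Hmx homeobox genes were followed in calibrated ATAC-seq (cATAC-seq) data from mouse embryonic stem cells (mESCs). Members were taken by gene symbol: 6 Dlx promoters (Dlx1 to Dlx6) and 3 Hmx promoters (Hmx1 to Hmx3), which is 9 of the 20633 promoters measured. The families were chosen by measured values of these data: the Dlx2 promoter lay lower after tamoxifen in Kdm2a/b-JmjC cells on the calibrated scale, and the Hmx3 promoter lay lower after tamoxifen in Kdm2a/b-CXXC cells after TMM scaling, which sets each library to the bulk of its own promoters. Values of the members in these lines are therefore given as a description, without a test, and the limits on p and fold are named there only to say how the choice was made and which settings it rests on. Members are tested only in Kdm2a-CXXC and Kdm2b-CXXC cells.

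KDM2A and KDM2B are histone demethylases that bind non-methylated CpG islands through a ZF-CxxC domain. All 4 mESC lines carried a tamoxifen-inducible CRE recombinase at the Rosa26 locus, grew in serum with LIF, and were compared without treatment and after 800 nM 4-hydroxytamoxifen for 96 h. In Kdm2a/b-JmjCfl/fl cells treatment deletes the JmjC-encoding exons of Kdm2a and Kdm2b, so that only the short forms remain (3 untreated and 3 treated libraries). In Kdm2a/b-CXXCfl/fl cells it deletes the ZF-CxxC-encoding exon of both genes (4 and 4 libraries). In Kdm2a-CXXCfl/fl and Kdm2b-CXXCfl/fl cells it deletes that exon from the single named gene (3 and 3 libraries each). The JmjC line was derived from mice, whereas the Kdm2a-CXXC and Kdm2a/b-CXXC lines were made by genome editing of CreERT2 or Kdm2b-CXXCfl/fl cells through single clones. No line without floxed alleles is among these samples, so the deletion and tamoxifen itself cannot be told apart. The libraries of each line are described as biological replicates, and p-values measure the spread between them.

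Values are calibrated reads, that is mouse reads over a 400 bp interval divided by a size factor from Drosophila cells mixed in before the assay. Since all intervals have the same length, levels can be compared between promoters of a line. Each line was calibrated on its own, so levels set side by side across lines are a description. The 26 libraries held 1488370 to 3025358 reads over promoters, and the median promoter of a library held 58 to 108 of them. The members had 12 to 178 reads per library, and all 9 passed the filter on low reads in every line. Among 9 promoters of mESC marker genes, mean untreated levels stood above 17.3% to 99.1% of all promoters, with Sox2 and Zfp42 above at least 80.1% in each line. Promoters of 5 neural marker rows stood above 35.3% to 83.4%, those of 4 endoderm genes above 31.5% to 57.1% and those of 5 fibroblast genes above 24.2% to 48.1%, while Alb, Ins2, Myh6 and Krt5, which mESCs do not use, stood above 1.03% to 22.7%. The range of the mESC list thus reached above that of the silent genes but overlapped it through Esrrb. It also overlapped those of the neural, endoderm and fibroblast lists, and the share of other cell types in the cultures was not tested.

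Dlx and Hmx genes encode homeodomain transcription factors of the NK-like class. Dlx genes lie in pairs in which neighbours share enhancers: Dlx1 and Dlx2 direct the differentiation and migration of GABAergic forebrain interneurons, Dlx5 and Dlx6 pattern the lower jaw and limbs, and Dlx3 acts in placenta, epidermis and bone. Hmx2 and Hmx3 act in the inner ear and hypothalamus, and Hmx1 in the eye, external ear and sensory ganglia. In mESCs such developmental genes are held by Polycomb complexes at CpG-rich promoters, and KDM2B is known to bring a variant Polycomb repressive complex 1 to CpG islands.

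The members sit at 5 loci in the mm10 build. Dlx1 (NM_010053, chr2:71529245-71529644, plus strand) and Dlx2 (NM_010054, chr2:71546555-71546954, minus strand) lie 17.3 kb apart. Dlx3 (NM_010055, chr11:95119917-95120316, plus strand) and Dlx4 (NM_007867, chr11:95145602-95146001, minus strand) lie 25.7 kb apart. Dlx5 (NM_010056, chr6:6881869-6882268, minus strand) and Dlx6 (NM_010057, chr6:6863134-6863533, plus strand) lie 18.7 kb apart. Hmx2 (NM_145998, chr7:131553862-131554261) and Hmx3 (NM_008257, chr7:131542763-131543162) lie 11.3 kb apart on the plus strand, and Hmx1 (NM_010445, chr5:35388917-35389316, plus strand) is alone. In 7 of the 9 members the interval was centred on the RefSeq transcription start site (TSS), with 200 bp upstream and 200 bp of the first exon. In the transcripts named, the exonic bases are 5′ UTR in Dlx1 to Dlx4, 182 bp of 5′ UTR and 18 bp of coding sequence in Dlx5, and 46 and 154 bp in Dlx6. In Hmx3 they are coding sequence alone, with 0 bp of 5′ UTR, and bases just upstream are exonic in another annotated transcript. The other two are placed differently: the Hmx1 interval lay wholly within exonic sequence downstream of the TSS (200 bp of 5′ UTR and 200 bp of coding sequence), and the Hmx2 interval ended 32 bp before it. The interval of Dlx4 overlapped the antisense gene Dlx4os and that of Dlx6 the antisense gene Dlx6os1, and ATAC reads carry no strand.

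The upstream sequences of 3 members are shown because the comparisons turn on them: Dlx2 and Hmx3 through which the families were picked, and Hmx2, the neighbour of Hmx3, whose treated and untreated libraries lay apart in Kdm2a/b-JmjC cells. They are read 5′ to 3′ on the strand of the gene from RefSeq's copy of the mm10 build (GRCm38.p6), and capitals mark CpG dinucleotides, the letters that ZF-CxxC domains bind when not methylated. Dlx2 is chr2:71546755-71546954 (minus strand), Hmx2 is chr7:131554062-131554261 and Hmx3 chr7:131542763-131542890 (both plus strand). Dlx2 ends at the base before the TSS, Hmx2 ends 32 bases and Hmx3 73 bases before it, and bases that are exonic in any annotated transcript are left out.
Dlx2: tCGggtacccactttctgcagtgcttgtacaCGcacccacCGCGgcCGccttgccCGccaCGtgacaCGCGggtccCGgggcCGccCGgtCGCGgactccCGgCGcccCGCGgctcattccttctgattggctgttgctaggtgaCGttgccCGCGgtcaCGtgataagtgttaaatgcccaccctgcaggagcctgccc
Hmx2: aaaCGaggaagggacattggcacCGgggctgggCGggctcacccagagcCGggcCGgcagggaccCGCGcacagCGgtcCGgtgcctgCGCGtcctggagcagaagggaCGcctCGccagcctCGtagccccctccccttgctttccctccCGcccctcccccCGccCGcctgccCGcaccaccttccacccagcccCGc
Hmx3: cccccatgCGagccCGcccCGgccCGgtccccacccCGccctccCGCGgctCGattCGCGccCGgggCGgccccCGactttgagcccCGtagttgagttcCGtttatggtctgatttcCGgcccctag
All 3 are dense in capitals, with 22 (Dlx2), 19 (Hmx2) and 16 (Hmx3) CpG in 200, 200 and 128 bases.

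Over the whole 400 bp intervals, GC content ran from 49.5% (Dlx6) to 75.8% (Hmx3), with a median of 69.8% against 60.3% over the 20630 promoters with sequence. CpG counts ran from 13 (Dlx6) and 21 (Dlx5) to 52 (Hmx3) and 53 (Hmx1), with a median of 42 against 24. Of the 9 members, 8 were CpG-rich (50% GC or more, with CpG at 0.6 or more of the number expected from base composition), a property of 54.6% of all promoters. The core homeodomain word TAATTA was found in 0 of the 9 intervals on either strand (3.92% of all promoters hold it). The words CAAGTG, which HMX proteins are known to bind, and TATAAA, the TATA box, were each found only in Dlx6 (15.4% and 10.4% of all promoters). Further words were chosen after the sequences were read: CCAAT was found in 5 members (Dlx2, Dlx3, Dlx4, Dlx5 and Hmx2) and in 40.03% of all promoters, and the E-box word CACGTG in Dlx2 alone, which holds it 2 times, and in 9.54% of all promoters. No word contains another, and both strands were searched.

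In untreated cells the members had intermediate accessibility. Their means stood above 34.1% to 71.4% of all promoters, above the range of the genes that mESCs do not use. The median over members was 57.3 calibrated reads against 71.9 over all promoters in Kdm2a/b-JmjC cells. It was 45.4 against 62.3 in Kdm2a/b-CXXC cells, 68.9 against 82.1 in Kdm2a-CXXC cells, and 69.7 against 92.7 in Kdm2b-CXXC cells. Dlx2 was the most accessible member in each of the 4 lines, at 125 ± 18.6 (SD, n = 3), 107 ± 17.9 (n = 4), 111 ± 2.15 (n = 3) and 154 ± 33.4 (n = 3) calibrated reads, with the lines taken in that order. Dlx1, Dlx3 and Hmx2 filled the next 3 places in every line. Dlx6 was the least accessible except in Kdm2b-CXXC cells, where Hmx3 (44.0 ± 1.17, n = 3) and Dlx6 (45.0 ± 12.9, n = 3) overlapped. Neighbours in this order nearly always overlapped in their libraries. The exceptions were the step from Hmx2 to Hmx1 in Kdm2a/b-JmjC cells (89.1 ± 10.5 against 57.3 ± 7.26), that from Hmx2 to Dlx5 in Kdm2a/b-CXXC cells (66.1 ± 6.02 against 45.4 ± 7.34) and that from Dlx5 to Hmx1 in Kdm2a-CXXC cells (68.9 ± 3.31 against 57.8 ± 12.03).

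**Figure D1:**
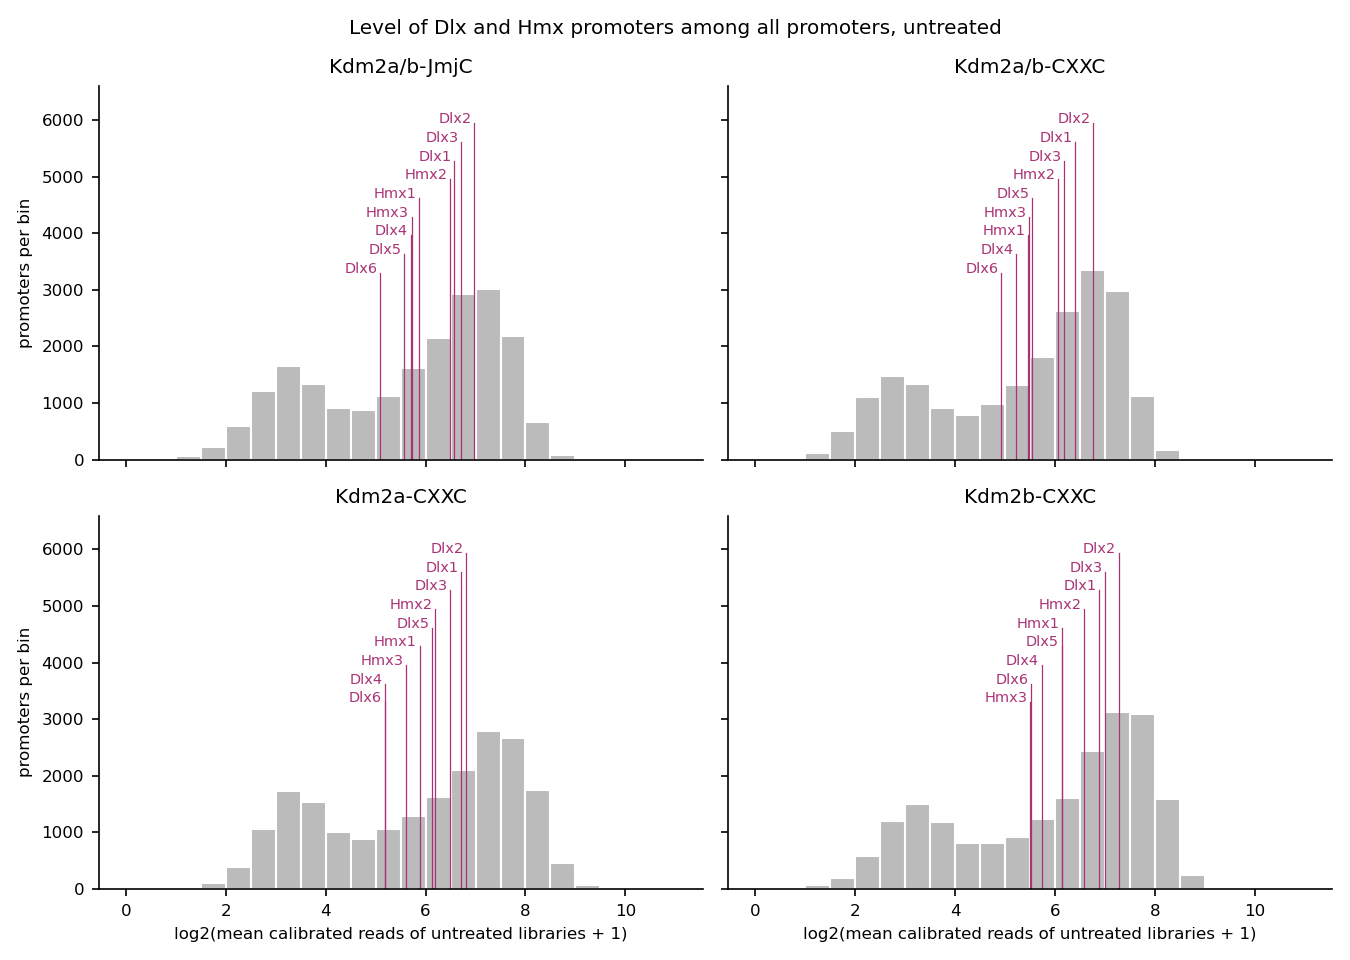
Histograms of the mean calibrated reads of untreated libraries over all promoters (log2 axis, bins of 0.5, 1 panel per line), with a line for each Dlx and Hmx promoter. Most members lie between the low and the high peak or on the lower flank of the high peak. Dlx2 in Kdm2a/b-CXXC cells, and Dlx2 and Dlx3 in Kdm2b-CXXC cells, fall in the highest bin. Members run from 29.4 to 154 calibrated reads, and Dlx2 is the rightmost in every panel.

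The paired genes were not alike in level. Dlx2 and Dlx1 were both in the upper part of the order, but Dlx3 stood at 104 ± 10.1 and Dlx4 at 51.0 ± 6.73 calibrated reads in untreated Kdm2a/b-JmjC cells (n = 3 each), and Hmx2 at 89.1 ± 10.5 and Hmx3 at 51.6 ± 12.1. Among promoters of the long noncoding RNAs named after Dlx genes, 2 were within the range of the genes that mESCs do not use (up to 13.2). Dlx1as, between Dlx1 and Dlx2, had 9.78 ± 4.17 and Dlx6os1, between Dlx5 and Dlx6, 2.65 ± 1.52 calibrated reads in the same libraries. The other 2 were above that range. Dlx6os2, also between Dlx5 and Dlx6 and 1.82 kb from Dlx6, had 22.2 ± 4.59. Dlx4os, whose promoter is 0.749 kb from that of Dlx4, had 39.7 ± 8.50.

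Median accessibility of promoters rose with CpG count up to the bin of 40 to 49 CpG and was lower again above it, and the members lay below these medians. Among promoters with 50 or more CpG the median untreated level was 121, 99.9, 149 and 155 calibrated reads in Kdm2a/b-JmjC, Kdm2a/b-CXXC, Kdm2a-CXXC and finally Kdm2b-CXXC cells. Hmx3, with 52 CpG, had 51.6, 43.4, 47.7 and 44.0, and stood above no more than 6.45% of these promoters in any line. Hmx1, with 53 CpG, stood above 6.396% to 8.28% of them, in an interval that lies downstream of the TSS. Across all members and lines, 36 of 36 untreated means were below the median of promoters with a like CpG count, standing above 1.49% (Hmx3, Kdm2b-CXXC) to 45.8% (Dlx6, Kdm2b-CXXC) of them. The 36 are the same 9 promoters in 4 lines. Other developmental genes were not compared at a like CpG count. In the same order of lines, untreated medians of other NK-like homeobox promoters were 65.9, 59.4, 74.5 and 82.7 calibrated reads. Over all promoters they were 71.9, 62.3, 82.1 and 92.7, so a lower level was not particular to the members.

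**Figure D2:**
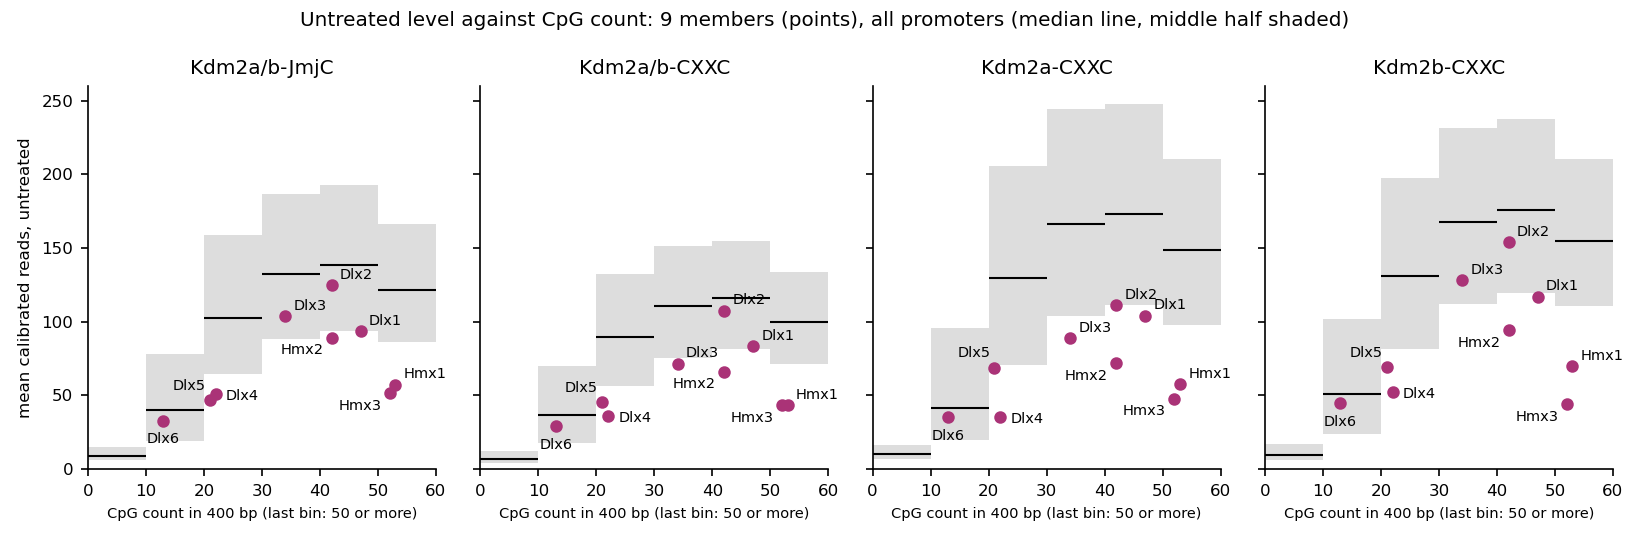
Mean calibrated reads of untreated libraries against the CpG count of the 400 bp interval, 1 panel per line. Points are the 9 members, and for all promoters in bins of 10 CpG (the last bin holds 50 or more) the black line is the median and the shading runs from the 25th to the 75th percentile; every point lies below its black line.

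In Kdm2a/b-JmjC cells, which lose the long forms of KDM2A and KDM2B, 4 members lay lower in every treated library than in any untreated one on the calibrated scale: Dlx2, Dlx3, Hmx2 and Hmx3. This holds for 23.2% of all 17174 promoters tested, and since this contrast served to pick Dlx2 nothing is read from the count. All promoters shifted in this line, with a median log2(tamoxifen/untreated) of -0.21, and 83.4% were below 0, as were 9 of the 9 members (median -0.29).

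Dlx2 had 138, 133 and 104 calibrated reads in untreated and 71.5, 88.5 and 58.3 in treated Kdm2a/b-JmjC libraries. The groups were 15.1 reads apart at their nearest, and the log2 ratio was -0.78. Dlx2 was chosen as 1 of 13 promoters (0.0757%) inside the limits of an adjusted p under 0.05 and a fold above 1.4 in the lower direction, where 0 were in the higher, so its place there is the choice itself and no result. Among the other members Dlx3 came nearest to these limits, with a log2 ratio of -0.62, at rank 377 by adjusted p among all 17174 promoters tested. The choice of Dlx2 would not have been made on leaving out either untreated replicate 1 or 2, or tamoxifen replicate 3 (log2 ratios of -0.70, -0.73 and -0.63), nor without the filter on low reads at an unchanged ratio, and DESeq2 gave it no adjusted p. The ratio of Dlx3 moved from -0.62 to -0.27 without tamoxifen replicate 3 and to -0.88 without tamoxifen replicate 1. In that last setting Dlx3 too came inside the limits, with 607 of 17920 promoters inside them, and nothing is read from this. After TMM scaling the log2 ratio of Dlx2 was -0.57, 0 members and 0% of all promoters were inside the limits, and 5 of 9 members lay below 0 beside 49.6% of all promoters.

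Hmx2 showed the tightest treated group, with 59.8, 57.9 and 57.3 calibrated reads against 101, 87.0 and 79.7 in untreated cells. The treated values came from 56, 74 and 56 sequenced reads, and their SD of 1.29 was smaller than counting error alone would give. Its log2 ratio was -0.60, and it was the only member whose groups remained apart after TMM scaling (5.31% of all promoters). Hmx3 had 41.8, 48.0 and 65.1 in untreated and 28.8, 33.7 and 37.9 in treated libraries, with a log2 ratio of -0.60. Dlx3 was uneven, with 115, 96.1 and 99.9 in untreated and 96.1, 76.0 and 40.9 in treated libraries, and its groups were 0.0042 reads apart. The treated and untreated libraries of the other members overlapped, and their log2 ratios were -0.29 for Dlx6, -0.13 for Dlx1, -0.094 for Hmx1, -0.091 for Dlx4 and -0.065 for Dlx5. Dlx1 thus lay closer to 0 than its neighbour Dlx2 at 17.3 kb, and at the flanking promoters Metap1d and Platr26 the log2 ratios were -0.069 and 0.11. At other loci flanking promoters were at -0.33 (Itga3, beside Dlx3), 0.032 (Tac4, beside Dlx4), -0.37 (Tac1, beside Dlx5) and -0.15 (Sem1, beside Dlx6). Acadsb and Bub3, beside Hmx2 and Hmx3, were at -0.27 and -0.28, and Cpz, beside Hmx1, at 0.10. Dlx4os and Dlx6os2 were at -0.10 and -0.52, where the median of all promoters was -0.21. Dlx1as, Dlx6os1 and 4930478P22Rik did not pass the filter on low reads. In the same libraries the summed level of the neural marker promoters was 522 to 530 calibrated reads untreated and 369 to 459 treated. It was 936 to 1028 and 832 to 1023 for the mESC markers. For the endoderm genes it was 234 to 262 and 174 to 246, and for the fibroblast genes 207 to 219 and 157 to 217. Below 0 on the log2 scale lay 5 of 5 neural, 7 of 9 mESC, 3 of 4 endoderm and 3 of 5 fibroblast promoters, beside 83.4% of all promoters. After TMM scaling these counts were 3, 1, 2 and 2, beside 49.6% of all promoters. Of these marker promoters 0 were past the limits. The part of these shifts in the values of the members was not tested.

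**Figure D3:**
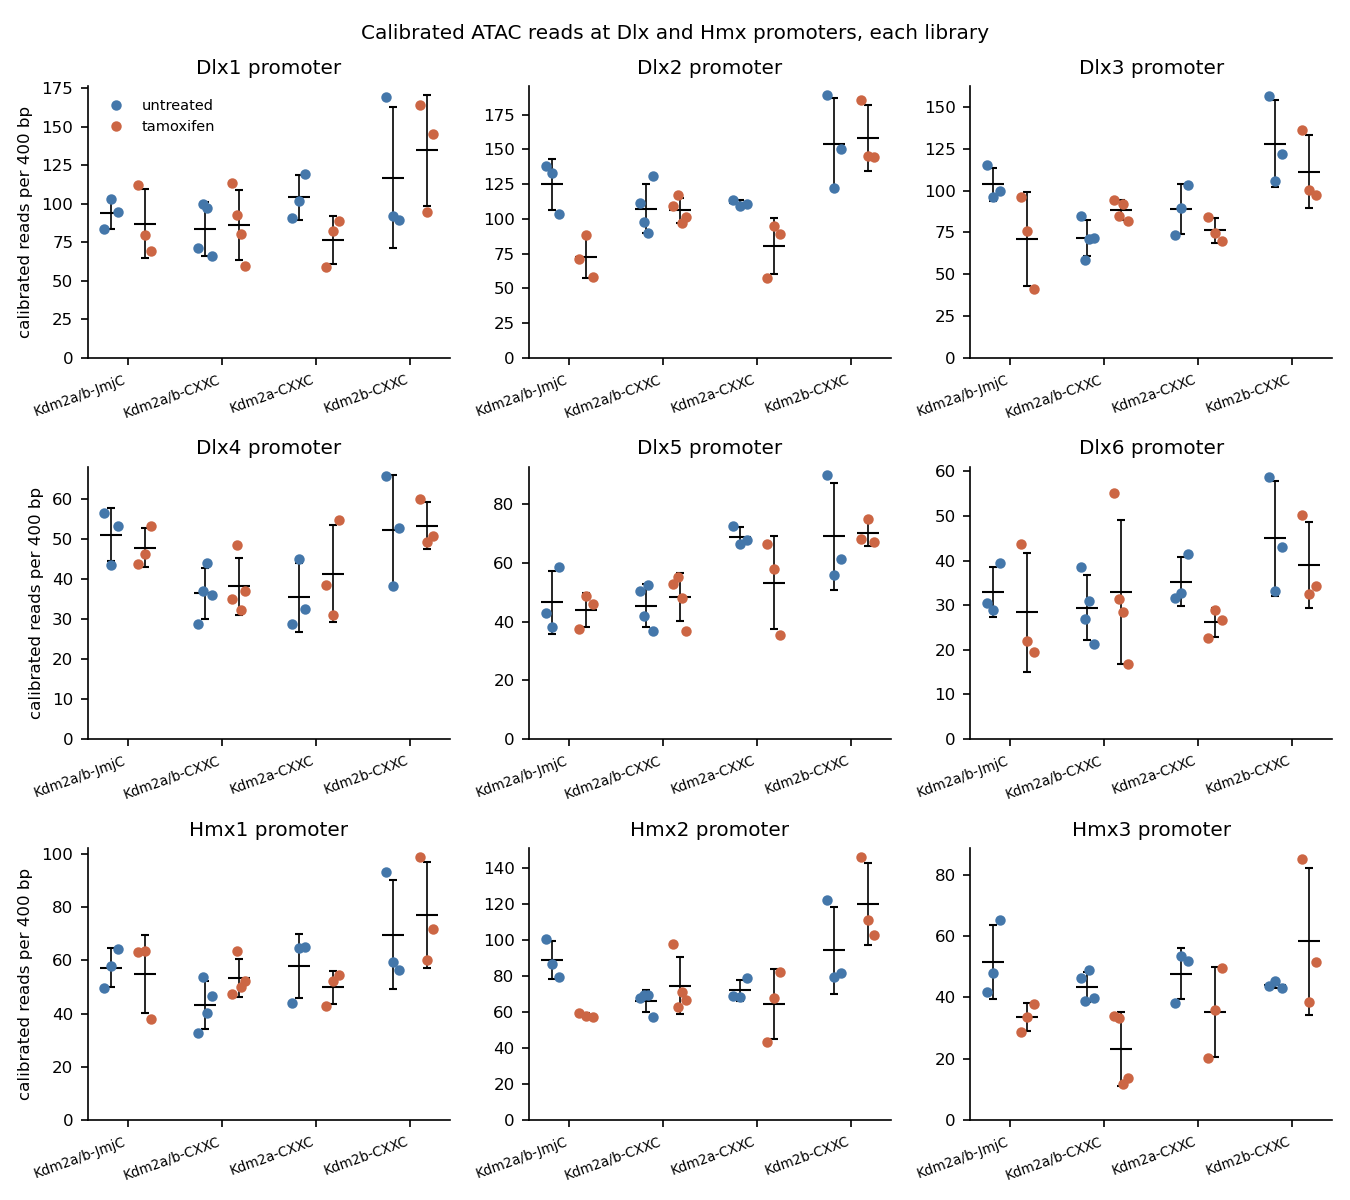
Calibrated reads per 400 bp (vertical axis, from 0) at each Dlx and Hmx promoter in untreated (blue) and tamoxifen-treated (orange) libraries of the 4 lines; bars are the mean ± SD over 3 libraries per group, or 4 in Kdm2a/b-CXXC. Treated libraries lie below all untreated ones at Dlx2, Dlx3, Hmx2 and Hmx3 in Kdm2a/b-JmjC cells, at Hmx3 in Kdm2a/b-CXXC cells and at Dlx1, Dlx2 and Dlx6 in Kdm2a-CXXC cells.

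In Kdm2a/b-CXXC cells, which lose CpG island binding of both proteins, Hmx3 stood apart from the other members. It had 46.4, 38.9, 48.7 and 39.7 calibrated reads in untreated libraries and 33.8, 33.1, 11.7 and 13.6 in treated ones. All 4 treated libraries lay below the untreated range, in a pair near 33 reads and a pair near 12 to 14, and the treated libraries held 30, 39, 12 and 17 sequenced reads there. The log2 ratio of Hmx3 was -1.03 on the calibrated scale and -1.12 after TMM scaling. It was chosen as 1 of 11 promoters (0.067%) inside the limits in the lower direction after TMM scaling, beside 6 (0.0366%) in the higher, and this is again the choice and no result. On the calibrated scale the choice would not have been made, since 0 of 16413 promoters were inside the limits with limma, edgeR or DESeq2 (764, 778 and 740 had an unadjusted p under 0.05), except without tamoxifen replicate 1, at a log2 ratio of -1.26. Without tamoxifen replicate 3 or 4 the log2 ratio was -0.77 or -0.84. Groups that do not overlap in the lower direction were seen for 0.597% of all promoters on the calibrated scale, for 2.57% after TMM scaling, and for Hmx3 alone among the members; nothing is read from this, since Hmx3 was picked in this contrast.

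Hmx2, 11.3 kb from Hmx3, did not share the lower level: 68.2, 69.8, 69.3 and 57.1 calibrated reads untreated and 98.0, 62.8, 71.4 and 66.6 treated, a log2 ratio of 0.16. The nearest other promoters, Bub3 and Acadsb, had log2 ratios of 0.063 and 0.16. The remaining members ran from -0.0083 (Dlx2) to 0.31 (Dlx3 and Hmx1), around a median of 0.087 over all promoters. Below 0 lay 2 of the 9 members (32% of all promoters), or 6 after TMM scaling (49.7%). Dlx2 had 112, 97.7, 90.0 and 131 calibrated reads untreated and 109, 117, 96.8 and 101 treated, so the groups overlapped almost fully. Dlx3 had 84.9, 58.8, 71.2 and 71.6 untreated and 94.6, 84.9, 91.9 and 81.9 treated, with treated libraries in the upper part of the untreated range or above it.

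After tamoxifen in Kdm2a-CXXC cells, a contrast that did not serve to pick the families, 0 of the 9 members passed an adjusted p of 0.05 and a fold of 1.4, as did 0% of 17727 promoters in either direction. The count was 0 with edgeR and DESeq2 too, and 2 members (Dlx1 and Dlx2) had an unadjusted p under 0.05, against 8.39% of all promoters; after TMM scaling it was 0 members against 6.19%. The log2 ratios of 8 members were below 0, where 81.2% of all promoters lay, and the same 8 were below the median of all promoters (-0.18), where 50% lay by construction; their own median was -0.41 on the calibrated scale and -0.23 after TMM scaling, which takes the median of all promoters to -0.0025 and leaves 8 members (50.5% of all promoters) below 0. Dlx4 was the exception at 0.21.

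Dlx2 had 114, 110 and 110 calibrated reads in untreated Kdm2a-CXXC libraries and 57.5, 94.8 and 88.8 in treated ones. The untreated libraries lay close together, closer than counting error alone would give (a coefficient of variation of 1.93% against 8.98%), and all treated libraries lay below them. The log2 fold change was -0.50 with a standard error of 0.22 (95% interval -0.92 to -0.074, adjusted p = 0.581). Without tamoxifen replicate 1, the lowest treated library at Dlx1, Dlx2, Dlx6 and all 3 Hmx promoters, the log2 fold change of Dlx2 was -0.27, and the median of all promoters -0.073.

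Dlx1, the partner of Dlx2 in the forebrain pair, had 90.8, 102 and 120 untreated and 59.3, 82.2 and 88.8 treated, with a log2 fold change of -0.45 (95% interval -0.87 to -0.019, adjusted p = 0.59). Its groups were 1.92 reads apart. Dlx6 had 31.5, 32.7 and 41.5 untreated and 22.7, 29.0 and 26.7 treated, also without overlap, with a log2 fold change of -0.42 (95% interval -1.03 to 0.19, adjusted p = 0.647). These 3 members are to be read against 13.4% of all promoters that did not overlap in this direction; after TMM scaling Dlx1 and Dlx6 remained (5.77% of all promoters). Hmx3 had 38.2, 53.3 and 51.7 untreated and 20.05, 35.8 and 49.5 treated, with a log2 fold change of -0.51 (95% interval -1.05 to 0.041, adjusted p = 0.596), and its groups overlapped. Leaving out tamoxifen replicate 1 gave -0.16, and leaving out tamoxifen replicate 3 gave -0.79. The 4 remaining members with values below 0 were Dlx5 at -0.41, Dlx3 at -0.21, Hmx2 at -0.20 and Hmx1 at -0.20, with adjusted p from 0.607 to 0.765, and their groups overlapped. Without tamoxifen replicate 3 the value of Dlx5 was -0.15. For Dlx4 the interval ran from -0.35 to 0.77 (adjusted p = 0.777).

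In Kdm2b-CXXC cells 0 of the 9 members passed, with 0% of 17930 promoters passing in either direction. The count was 0 with limma, edgeR and DESeq2, 0 members had an unadjusted p under 0.05 with limma, and 120 (0.669%), 107 and 104 of all promoters had one by the same 3 tools. After TMM scaling 1 promoter passed (0.00558%), and it was no member. The standard errors of the members were 0.36 to 0.39 on the calibrated scale and 0.13 to 0.25 after TMM scaling of the same libraries. For Dlx2 the 95% interval ran from -0.67 to 0.77 on the calibrated scale and from -0.31 to 0.21 after TMM scaling, which leaves out any shift common to all promoters. The log2 fold changes were 0.36 for Hmx2, 0.32 for Hmx3, 0.23 for Dlx1, 0.15 for Hmx1, 0.057 for Dlx4, 0.052 for Dlx2, 0.048 for Dlx5, -0.19 for Dlx6 and -0.20 for Dlx3, around a median of 0.099 over all promoters, and every adjusted p was 0.9999 when rounded. Below 0 were 2 of 9 members, against 28.9% of all promoters; after TMM scaling this was 5 of 9 against 49.9%, with Dlx2, Dlx4 and Dlx5 changing side.

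Hmx3 had 43.8, 45.3 and 43.0 calibrated reads untreated in Kdm2b-CXXC cells and 85.0, 38.4 and 51.4 treated. Its untreated libraries lay closer together than counting error alone would give (a coefficient of variation of 2.66% against 14.1%). The highest Hmx3 value of this line, in tamoxifen replicate 1, came from 61 sequenced reads, where the untreated libraries held 38, 64 and 49. That library had a size factor of 0.718, the lowest of the 26 libraries. Without it the log2 fold change was 0.014. Hmx2 had 122, 79.3 and 81.6 untreated and 146, 111 and 103 treated, with a 95% interval from -0.36 to 1.07. Dlx3 had 157, 106 and 122 untreated and 136, 101 and 97.1 treated. After TMM scaling its log2 fold change was -0.30 with a standard error of 0.15 and an unadjusted p under 0.05 that did not pass adjustment (adjusted p = 0.639), while 7.75% of all promoters had an unadjusted p under 0.05.

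**Figure D4:**
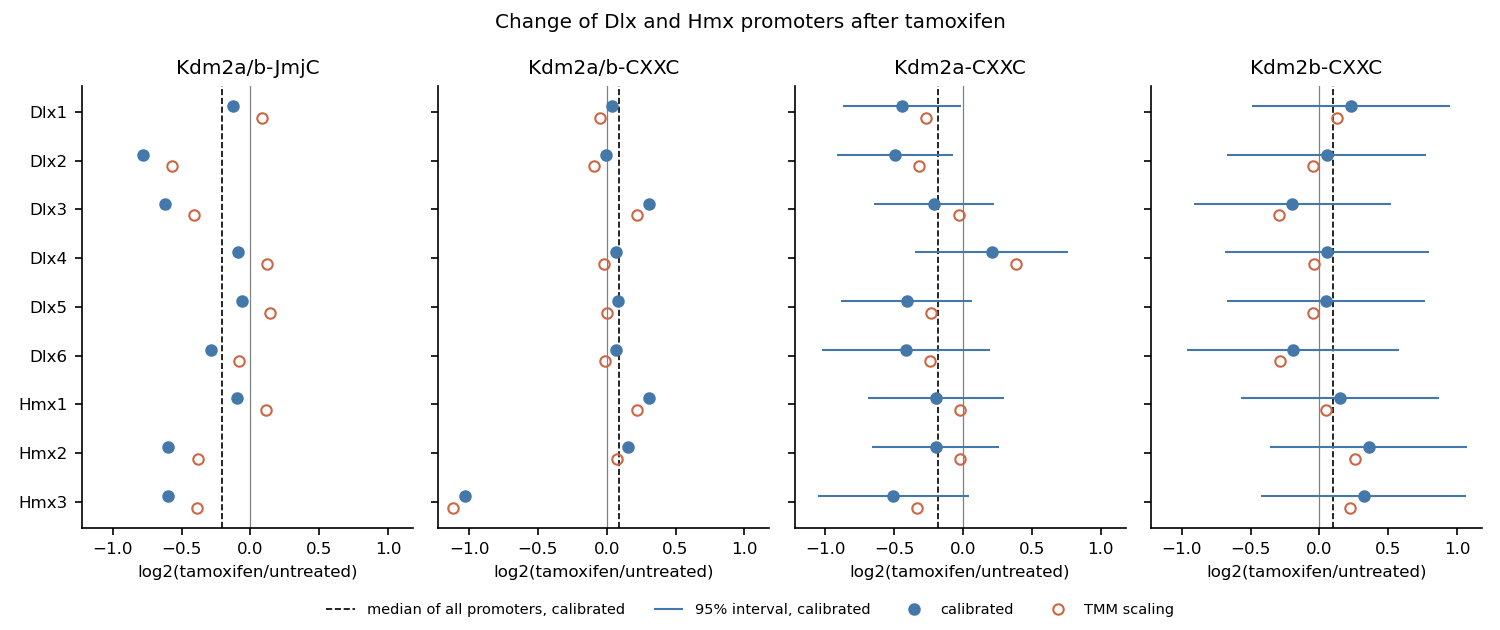
Log2(tamoxifen/untreated) of the 9 members in each line on the calibrated scale (filled) and after TMM scaling (open), with 95% intervals from limma for the calibrated values in Kdm2a-CXXC and Kdm2b-CXXC cells and the median of all promoters (dashed). Dlx2 at -0.78 in Kdm2a/b-JmjC and Hmx3 at -1.03 in Kdm2a/b-CXXC lie farthest to the left in the lines in which they were picked, and intervals in Kdm2b-CXXC all span 0.

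Set side by side, with the JmjC line first, the Kdm2a/b-CXXC line next and the single-gene lines of Kdm2a and Kdm2b last, the calibrated log2 ratios of Dlx2 were -0.78, -0.0083, -0.50 and 0.052, and those of Hmx3 were -0.60, -1.03, -0.51 and 0.32. Relative to the median of all promoters of the same line, Dlx2 and Dlx6 lay lower in 4 of 4 lines, Dlx3, Dlx5 and Hmx3 in 3, Dlx1, Dlx4 and Hmx2 in 2 and Hmx1 in 1. In each line 50% of all promoters lie below this median by construction, and the share lower in several lines was not computed. The lines in which Dlx2 and Hmx3 were picked are among those counted, so nothing is read from these counts. In the same order of lines, the distances from the median were -0.57, -0.095, -0.32 and -0.047 for Dlx2. For Dlx6 they were -0.078, -0.016, -0.24 and -0.29. Differences between lines were not tested, since each line has its own calibration.

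Other homeobox promoters of the NK-like class gave no call. All 37 that were measured, including Msx1, En2 and the Nkx genes, were tested in each line, and 0 passed in either direction on the calibrated or the TMM scale. Their calibrated log2 ratios ran from -0.82 to 0.59 in Kdm2a/b-JmjC cells, where Dlx2 had -0.78. A ratio as low as that of Dlx2 was thus not particular to the members. In Kdm2a/b-CXXC cells they ran from -0.63 to 0.71, where Hmx3 had -1.03. The median log2 ratio of these 37 over the lines, in the order just used, was -0.36, 0.038, -0.22 and 0.10, beside -0.21, 0.087, -0.18 and 0.099 over all promoters. An unadjusted p under 0.05 in the lower direction was seen for 13, 1, 3 and 0 of them, and in the higher direction for 0, 3, 0 and 0; over all promoters and both directions such a p was seen for 20.6%, 4.65%, 8.39% and 0.669%. Genes known to act upstream or downstream of Dlx and Hmx factors, such as Gsx2, Gad1, Hand2 and Fgf10, gave 28 to 32 tested promoters per line, of which 0 passed in either direction on either scale. Their medians were -0.21, -0.031, -0.23 and 0.054 in the same order of lines, with an unadjusted p under 0.05 in the lower direction for 4, 0, 6 and 0 of them and in the higher direction for 0, 1, 0 and 0.

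The members did not vary together from library to library. Over the 26 libraries, on TMM-scaled log2 values centred on the mean of each line, Pearson's r between members ran from -0.53 (Dlx4 and Dlx6) to 0.44 (Dlx2 and Dlx3) with a median of 0.015 over 36 pairs. Pairs at the same locus had r of -0.15 for Dlx1 and Dlx2, -0.099 for Dlx3 and Dlx4, 0.15 for Dlx5 and Dlx6 and 0.047 for Hmx2 and Hmx3. These values share library, depth and treatment and are given as a description. Of the 16029 other promoters tested in all lines, those most like Dlx2 were Adamts14 (r = 0.81), the promoter of NM_001282148, for which no symbol was matched (r = 0.75), and Slc46a3 (r = 0.74), and those most like Hmx3 were Steap3 (r = 0.78), Prrc2c (r = 0.78) and Tor1aip2 (r = 0.72). The last 3 all lie on chromosome 1, whereas Hmx3 lies on chromosome 7. The 99th percentile of r over all promoters was 0.53 for Dlx2 and 0.55 for Hmx3.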

How the data were processed

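ATAC-seq libraries of mESCs mixed with Drosophila SG4 cells were aligned by the authors with Bowtie 2 to joined mm10 and dm6 genomes. Multimapping, duplicate (SAMtools), blacklisted and mitochondrial reads were removed, and reads were counted at gene promoters with DESeq2 size factors from Drosophila reads, corrected by sequenced input DNA. The deposited signal values are thus reads divided by a size factor (0.718 to 1.41). Steps in these values gave whole reads for 100% of entries (tolerance 0.01). The deposited tables also hold base means, fold changes and p-values of the authors' own comparison, which were not used, and the 26 input DNA libraries were not analysed here.

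Each line was fitted alone with limma 3.58.1 (R 4.3.3), using its trended prior variance, after log2(calibrated reads + 1) transformation, so fold changes of low promoters are understated. Promoters were kept by filterByExpr on recovered reads. A call needed a Benjamini-Hochberg adjusted two-sided p under 0.05 over all promoters tested and a fold above 1.4. TMM and median-of-ratios scaling, other pseudocounts, no filter, a replicate block, leaving out each library, edgeR 4.0.16 and DESeq2 1.42.0 were alternatives. The fit was tested on simulated data. Symbols were matched to RefSeq identifiers for 99.1% of promoters. Sequences were read with pysam 0.24.0 (Python 3.11.15). 

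Members and gene lists were chosen with earlier results of these data known. Named were all 9 members, the nearest promoters of other genes at each locus, promoters of other lists past the adjusted p (there were 0; those named as examples show what a list holds), and the 3 promoters most correlated with Dlx2 and with Hmx3. The words CCAAT and CACGTG were chosen after the sequences were read. In the homeobox list and in that of genes mESCs do not use, 1 gene each was not analysed here.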

Additional observations from a re-analysis of the deposited data

Results flagged for a closer look

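In untreated Kdm2a/b-CXXC cells, replicate 4 lay apart at the Hmx2 promoter, with 57.1 calibrated reads against 68.2 to 69.8 in the other libraries. The spread of the whole group was smaller than counting error alone would give (a coefficient of variation of 9.11% against 12.1%), so little is read from replicate 4. Replicate 4 was the only such library among the 18 groups of 4 examined by Dixon's test, which chance alone marks in about 1 group in 20.

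For 3 of the 9 members every treated library moved one way from the untreated mean in 1 line and the opposite way in another. The share of all promoters that did so was not computed, so nothing is read from this count. The median log2 ratio of all promoters was -0.21 in Kdm2a/b-JmjC and -0.18 in Kdm2a-CXXC cells, but 0.087 in Kdm2a/b-CXXC and 0.099 in Kdm2b-CXXC cells. The difference between lines was not tested, because each line was calibrated on its own, and the lines in which the families were chosen enter each case. The log2 fold change of Dlx3 was -0.62 in Kdm2a/b-JmjC and -0.21 in Kdm2a-CXXC cells but 0.31 in Kdm2a/b-CXXC cells, and after TMM scaling these values were -0.41, -0.031 and 0.22. That of Hmx1 was -0.20 in Kdm2a-CXXC and 0.31 in Kdm2a/b-CXXC cells, or -0.019 and 0.22 after TMM scaling. That of Hmx2 was -0.60 in Kdm2a/b-JmjC and 0.36 in Kdm2b-CXXC cells, or -0.38 and 0.26 after TMM scaling.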

How the results depend on the processing

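Under 18 alternatives and 12 omissions of a library, 0 members were called in Kdm2a-CXXC or Kdm2b-CXXC cells. TMM and median-of-ratios scaling moved the median log2 ratio of the members in Kdm2a/b-JmjC cells from -0.29 to -0.081 and -0.084, and leaving out 1 library gave -0.50 to -0.16. In Kdm2b-CXXC cells they turned Dlx2 (-0.047 and -0.048), Dlx4 (-0.041 and -0.042) and Dlx5 (-0.050 and -0.051). By their construction both scalings take out the shift shared by all promoters. Leaving out 1 library changed the sign of some members with small changes: in Kdm2a-CXXC cells values ran from -0.0097 to 0.39 for Dlx4 and -0.40 to 0.054 for Hmx2, and in Kdm2b-CXXC cells from -0.10 to 0.21 for Dlx2, -0.15 to 0.24 for Dlx4, -0.087 to 0.25 for Dlx5, -0.39 to 0.015 for Dlx6 and -0.045 to 0.38 for Hmx1; the cause was not tested. The other alternative values of single members in these lines, 138 under another setting and 97 with a library left out, kept their sign and their side of the threshold.

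Deviations of same-numbered libraries correlated over promoters at -0.009 to 0.073, under the 0.1 set for pairing; this measure leaves out shifts common to all promoters, and the summed calibrated reads ranked alike by number in both groups of Kdm2a-CXXC and of Kdm2b-CXXC cells. With a replicate block, 188 promoters (Kdm2a-CXXC) and 5 promoters (Kdm2b-CXXC) were called in place of 0, with 0 members among them (adjusted p for Dlx2 in Kdm2a-CXXC = 0.0834), and the standard error of Dlx2 in Kdm2b-CXXC cells went from 0.37 to 0.14. Without Kdm2a-CXXC tamoxifen replicate 3, 43 promoters and 0 members were called. Members held 12 to 178 reads per library, and the width of the intervals in Kdm2b-CXXC cells depended on the scale.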
